A study of Schizosaccharomyces pombe with 5 samples.

Results

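The genes described are those of fission yeast (Schizosaccharomyces pombe) that carry fermentation from pyruvate to ethanol. There are 4 pyruvate decarboxylase genes, pdc101 (SPAC1F8.07c), pdc102 (SPAC186.09), pdc201 (SPAC3G9.11c) and pdc202 (SPAC13A11.06), and 2 alcohol dehydrogenase genes, adh1 (SPCC13B11.01) and adh4 (SPAC5H10.06c). They were chosen by symbol, with the values of all 5 arrays known, so every value of theirs is a description and carries no test. Each had 1 spot with a value on every array, and they make up 6 of the 4797 genes measured. Cells of the strain L972 were starved of nitrogen for 48 h at 26 °C, which brings them to the resting state G0, and were then given 4 volumes of fresh medium with nitrogen. On each 2-colour array, Cy5 marked polyadenylated RNA of cells collected 1, 2, 3.5 or 6 h later, or of cells in logarithmic (vegetative) growth, and Cy3 marked RNA of G0 cells. There was 1 array per condition. Nitrogen and fresh medium came together in the replenished cultures, and the protocol of the vegetative cells names no starvation. Each value is a ratio between 2 RNA pools, so a change in every cell and a change in the share of cells that carry an RNA cannot be told apart.

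Pyruvate decarboxylase splits pyruvate, the end product of glycolysis, into acetaldehyde and carbon dioxide, with thiamine diphosphate as its cofactor. Alcohol dehydrogenase then reduces acetaldehyde to ethanol and returns NADH to NAD+, which glycolysis needs to go on. Adh1 is the zinc-containing main alcohol dehydrogenase of fission yeast, whereas Adh4 belongs to an iron-type family and lies in mitochondria. In cells short of zinc, adh4 is known to be switched on and adh1 to be held down by its antisense RNA adh1AS, and the zinc-responsive repressor Loz1 acts on both adh4 and adh1AS. The gene named pdc2 in fission yeast encodes an mRNA decapping factor and is no member of this group.

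The deposited values are log ratios of the Cy5 cells over G0 cells, taken here as log2. The Cy5 cells are called growing cells in the figures, although growth after nitrogen return was not measured here. A gene was counted as different when its log2 ratio was 1 or more, or -1 or less, that is 2-fold either way. This limit concerns size and is no test. Single spots have no error of their own. The SD between repeated spots was 0.18 to 0.25 for 3 genes spotted in all 16 blocks. For nda3, 1 of these genes, 15 spots were used, as 1 appeared to be left out of the authors' average. Across blocks the SD was 0.38 to 0.47 for 12 unnamed positions, which had no named gene in any block, and this larger error is used below. The sources used here do not say whether these positions carry the same material in all blocks. How well their SD stands for the error of a gene spot was not tested. Both SDs are between spots of the same array. They and the errors of differences made from them leave out variation between arrays, cultures and G0 preparations, which was not measured. The median log2 ratio over all genes was 0.00 to 0.14 in the 5 arrays. Of 5 genes known to be high under nitrogen starvation, isp5, isp6, mei2, ste11 and mfm1, 4 were at least 2-fold lower than in G0 cells at 1 h and at 6 h, and all 5 on the other arrays. Of all genes, 14.6% to 22.6% were that much lower on the 5 arrays. Values of the 1 h and 2 h arrays were deposited with 9 decimals and the rest with 3, so the step from 2 h to 3.5 h also crosses these sets of columns.

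The 6 genes did not move as a group. Their median log2 ratio was -0.69 (1 h), -0.95 (2 h), -0.51 (3.5 h), 0.03 (6 h) and -0.06 (vegetative). At 1 h, 3 of the 6 genes were at least 2-fold lower than in G0 cells and 1 was higher, where 22.6% of all genes were lower and 23.4% higher. At 2 h the members counted 3 lower and 1 higher, beside 21.3% and 22.8% of all genes. At 3.5 h there were 2 lower and 1 higher, beside 16.7% and 18.9%. At 6 h there were again 2 lower and 1 higher, beside 14.9% and 15.6%. In vegetative cells 2 were lower and 1 was higher, beside 14.6% and 15.8%. These counts rest on the values that the choice of genes had in view, and nothing is read from them. The higher gene was adh4 at each time and adh1 in vegetative cells, and pdc201 was among the lower genes on all 5 arrays. The genes pdc201, pdc202, adh1 and adh4 each followed a different course.

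**Figure D1:**
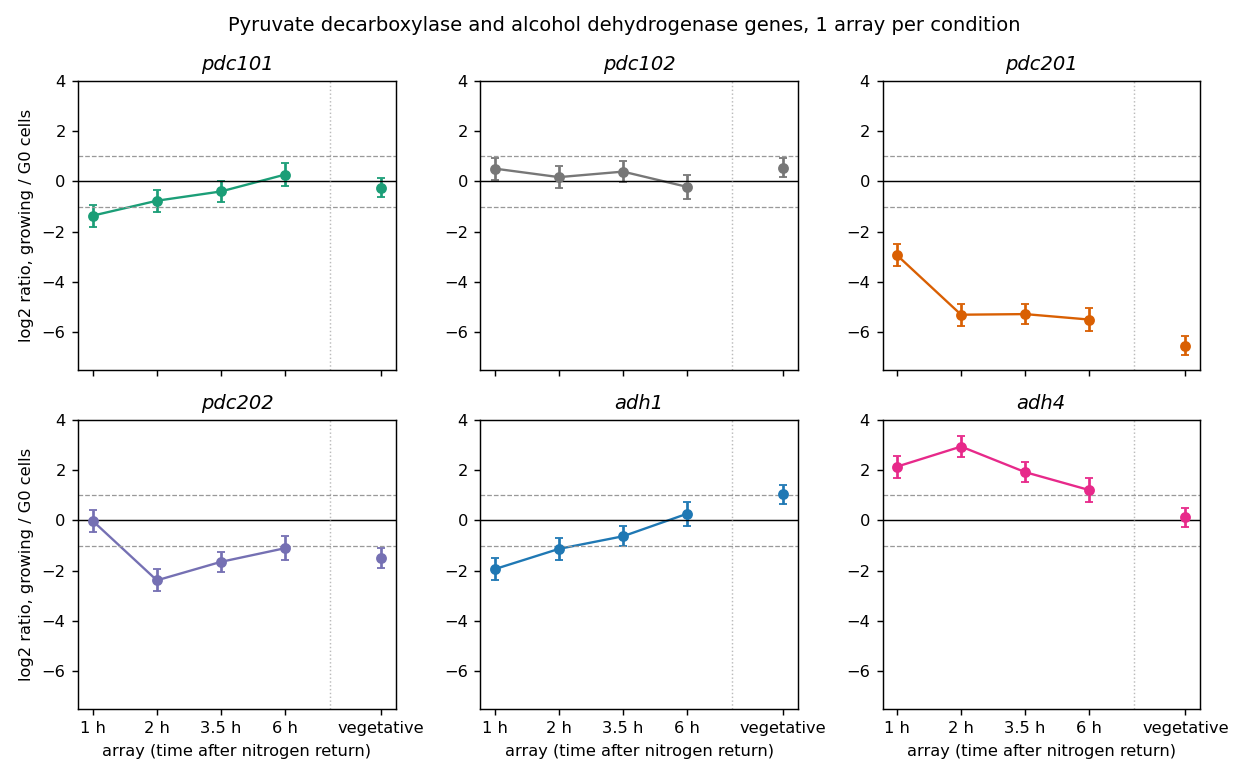
Log2 ratio of growing over G0 cells (vertical axis) of each of the 6 genes on the 5 arrays (horizontal axis, categories not to scale in time), with bars of 1 SD from the unnamed positions and dashed lines at 2-fold. The pdc201 points lie between -2.94 and -6.53, adh4 starts at 2.14 and ends at 0.13, and adh1 starts at -1.94 and ends at 1.05.

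The pdc201 RNA was far more abundant in G0 cells than in cells after nitrogen return or in vegetative growth. Its log2 ratio was -2.94 (1 h), -5.31 (2 h), -5.28 (3.5 h), -5.50 (6 h) and -6.53 (vegetative). The 1 h array is thus the highest and the vegetative array the lowest, and the arrays from 2 to 6 h lie within the spot error of each other. In linear terms pdc201 was 7.66-fold lower at 1 h and 92.7-fold lower in vegetative cells than in G0 cells. Counted from the lowest of all genes, its place was 143 of 4769 (1 h), 28 of 4781 (2 h), 9 of 4779 (3.5 h), 7 of 4779 (6 h) and 6 of 4765 (vegetative). Its ratio ranged over 3.60 on the log2 scale across the arrays, a wider range than that of 96.9% of the 4708 genes with all values, whose median range was 1.20. Spot intensities were not used here, so how far the Cy5 signal of pdc201 stood above background was not tested.

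The pdc202 RNA was near its G0 level at 1 h and lay below it afterwards. Its log2 ratio was -0.02 (1 h), -2.38 (2 h), -1.65 (3.5 h), -1.10 (6 h) and -1.50 (vegetative). The 1 h array stands apart from the other arrays, and the lowest value is that of 2 h, 5.22-fold below G0. Between 1 h and 2 h the ratios of pdc201 and pdc202 differed by nearly the same amount, -2.37 for each on the log2 scale, at places 72 and 73 from the lowest of 4755 genes. The error of such a difference, from the unnamed spots, was 0.62. After 2 h, pdc202 was 0.74 higher at 3.5 h than at 2 h and a further 0.54 higher at 6 h, each close to that error. In the same steps pdc201 differed by 0.02 and -0.22. Whether the 2 genes parted after 2 h was not tested, and the step from 2 h to 3.5 h crosses the sets of columns.

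The pdc101 RNA was below its G0 level early and near it later. Its log2 ratio was -1.36 (1 h), -0.77 (2 h), -0.40 (3.5 h), 0.27 (6 h) and -0.26 (vegetative). The 1 h array alone was past 2-fold, at 2.57-fold below G0. Each successive array of the time course was higher than the one before, by 0.59, 0.37 and 0.67, differences that lie near the spot error of 0.59 to 0.62. With each block of spots centred on its median, the 1 h value was -1.71 and the vegetative value -0.60.

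The pdc102 ratio stayed within 2-fold of G0 on all 5 arrays. It was 0.51 (1 h), 0.17 (2 h), 0.39 (3.5 h), -0.22 (6 h) and 0.55 (vegetative). Its range of 0.77 was wider than that of 22.9% of genes, the smallest of the 6 members. These values also lie close to those of the 12 unnamed positions, whose mean log2 ratio was 0.53, 0.11, 0.70, 0.20 and 0.36 in array order. The differences of pdc102 from them, from -0.42 to 0.19, were all smaller than the SD between those spots. By root mean square difference over the 5 arrays (0.25), 2.70% of the 4708 genes were closer to the unnamed positions than pdc102 was. The sources used here do not say what those positions carry, and whether the pdc102 spot was above background was not tested.

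The main alcohol dehydrogenase gene adh1 went from below to above its G0 level. Its log2 ratio was -1.94 (1 h), -1.13 (2 h), -0.63 (3.5 h), 0.27 (6 h) and 1.05 (vegetative). Each array in this order was higher than the one before, by 0.81, 0.50, 0.90 and 0.78, and no single step reached 2 SD of the spot error (1 SD was 0.59 to 0.62). From 1 h to vegetative growth the ratio differed by 2.98, or 7.90-fold, and 93.8% of genes had a smaller range. The spot error of that difference was 0.58, without any variation between arrays or cultures. At 1 h adh1 was 3.83-fold lower than in G0 cells and at 2 h 2.19-fold lower. With arrays scaled to the same spread the 2 h value was -0.996, just short of the limit. In vegetative cells it was 2.07-fold higher, just past the limit: it stood at 0.95 with arrays centred on their medians and at 0.84 with blocks centred.

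The arrays also held a spot that the platform annotation assigns to adh1AS, the antisense RNA of adh1, which was looked up by its identifier after the members' values were known. Its log2 ratio was 1.38 (1 h), 0.28 (2 h), 0.60 (3.5 h), 0.53 (6 h) and 0.67 (vegetative). The 1 h array was the highest of these and the only one past 2-fold, and it is the array on which adh1 was lowest. The 12 unnamed positions had mean log2 ratios of 0.53, 0.11, 0.70, 0.20 and 0.36 in array order. The SD between their spots was 0.38 to 0.47. The adh1AS values from 2 h on lay within that SD of these means, and the 1 h value within 2 SD. Whether the adh1AS spot was above background was not tested. The adh1 ratio minus the adh1AS ratio was -3.32 (1 h), -1.41 (2 h), -1.22 (3.5 h), -0.26 (6 h) and 0.38 (vegetative). Both transcripts cover the same stretch of chromosome III, with adh1AS spanning the whole of adh1 in the RefSeq annotation. The sources used here do not say which strand each spot reads, so signal of one on the spot of the other cannot be told apart.

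The mitochondrial alcohol dehydrogenase gene adh4 lay above its G0 level throughout the time course, while adh1 lay below its own up to 3.5 h. Its log2 ratio was 2.14 (1 h), 2.94 (2 h), 1.93 (3.5 h), 1.21 (6 h) and 0.13 (vegetative). It was highest at 2 h, 7.70-fold above G0, and in vegetative cells alone it was within the spot error of its G0 level. The 2 h value was 0.80 above that of 1 h, less than 2 SD of the spot error of a difference (1 SD was 0.62). Counted from the highest of all genes, its place was 420 of 4769 (1 h), 107 of 4781 (2 h), 314 of 4779 (3.5 h) and 572 of 4779 (6 h). The adh1 ratio minus the adh4 ratio was -4.08 (1 h), -4.08 (2 h), -2.55 (3.5 h), -0.94 (6 h) and 0.92 (vegetative). The 2 ratios were farthest apart at 1 h and 2 h, and in vegetative cells alone adh1 was the higher.

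Among 9 genes of zinc transport and its control, some were high together with adh4 and others were not. The zinc importer gene zrt1, another target of Loz1, had no value at 1 h, and its log2 ratio was 2.64 (2 h), 1.54 (3.5 h), 1.58 (6 h) and 3.42 (vegetative). It was thus highest in vegetative cells, where adh4 was near its G0 level and adh1 was high. The gene zhf1, for a transporter that moves zinc out of the cytosol, stood at 1.93, 2.09, 1.56, 1.33 and 0.85 in array order. Its lowest value was in vegetative cells and its highest at 2 h, as for adh4. The 1 h and 2 h values of zhf1 lay within the spot error of each other. The repressor gene loz1 was at 0.35, 1.05, -0.12, -0.01 and -0.04. It was past 2-fold at 2 h alone, and there by less than the spot error. The metallothionein gene zym1, which binds zinc, was at -3.40 at 1 h and between -6.07 and -7.39 on the later arrays. The gene zip3, of a zinc transporter family, stood at 0.67 at 1 h and at -2.40 at 2 h. Over the whole list the medians were 0.27, -0.14, -0.12, -0.34 and -0.04, with 1 of 8 genes at least 2-fold higher and 1 lower at 1 h. Of 9 genes on the later arrays, 3, 2, 3 and 1 were higher and 2, 3, 1 and 1 lower.

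**Figure D2:**
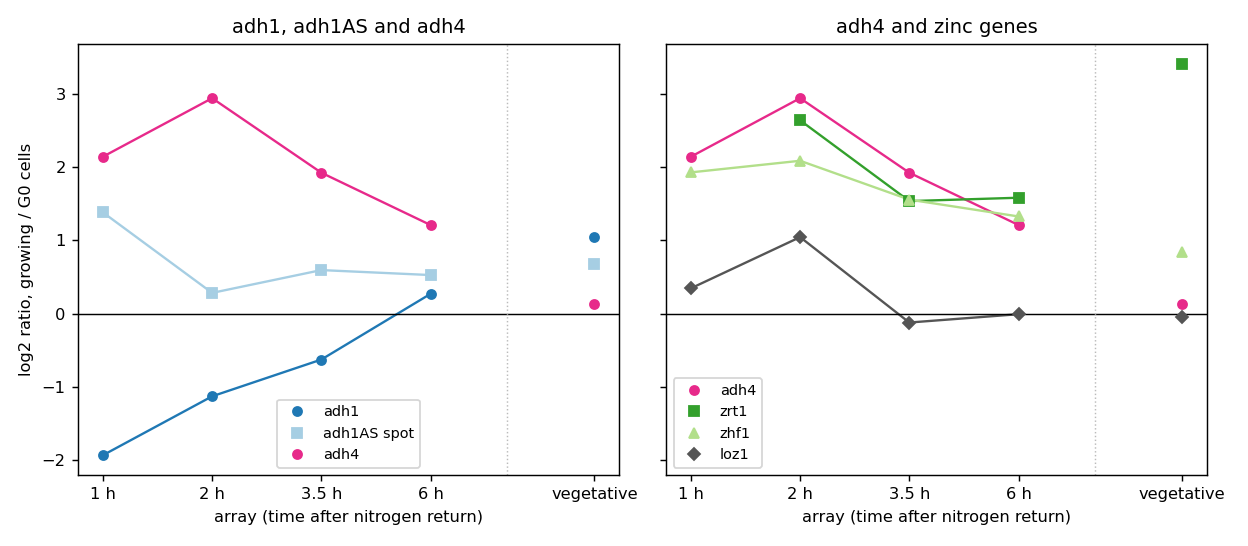
Log2 ratio of growing over G0 cells (vertical axis) on the 5 arrays (horizontal axis, categories), for adh1, the adh1AS spot and adh4 at left and for adh4, zrt1, zhf1 and loz1 at right. The zinc genes drawn were picked from the list of 9, and those left out include zym1 (-7.39 at 6 h) and zip3 (-2.40 at 2 h). The lines of adh1 and adh4 come together from -1.94 and 2.14 at 1 h to 0.27 and 1.21 at 6 h, and zrt1 is at 3.42 in vegetative cells, where adh4 is at 0.13.

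Among the steps between successive arrays, pdc201 and pdc202 differed most between 1 h and 2 h, although pdc201 at 1 h already differed from G0 by more (-2.94). In that step 2 of the 6 members, pdc201 and pdc202, were at least 2-fold lower and 0 higher, beside 7.49% and 4.67% of all genes. From 2 h to 3.5 h, 1 member, adh4, was lower (by -1.02) and 0 were higher, beside 10.4% and 11.6%. From 3.5 h to 6 h, 0 members passed 2-fold either way, beside 2.85% lower and 4.13% higher. From 6 h to vegetative growth, pdc201 (-1.03) and adh4 (-1.08) were lower and 0 were higher, beside 2.54% and 3.03%. The adh4 difference from 2 h to 3.5 h and both of these last differences were below 2 SD of the spot error of a step (1 SD was 0.59 and 0.61). All steps share G0 RNA in Cy3, and the sources used here do not say whether it was 1 preparation.

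**Figure D3:**
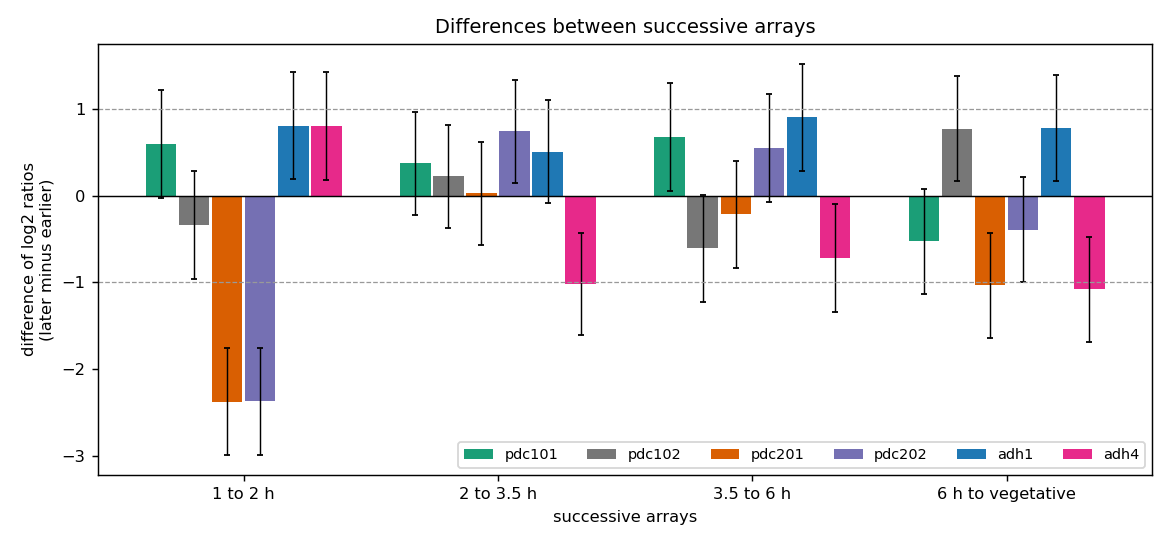
Difference of log2 ratios between successive arrays, later minus earlier (vertical axis), for each step (horizontal axis) and each of the 6 genes (bars), with error bars of 1 SD from the unnamed positions and dashed lines at 2-fold. The bars of pdc201 and pdc202 at -2.37 from 1 to 2 h are the longest, and the adh1 bars lie above 0 in every step.

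The order of the 6 genes by their change from G0 was stable at its ends for the time course. From 1 h to 6 h adh4 was the highest and pdc201 the lowest of the 6. The gap from pdc201 to the next gene was 1.00 at 1 h and 2.92, 3.64, 4.40 and 5.04 on the later arrays. In the middle of the order, pdc101 and adh1 differed by 0.57, 0.36, 0.23 and 0.00 from the 1 h to the 6 h array, each less than the SD of a difference between single spots (0.57 to 0.67). They parted in vegetative cells, where adh1 was the highest of the 6 and pdc101 the fourth. In vegetative cells adh1, pdc102, adh4 and pdc101 followed each other with gaps of 0.50, 0.42 and 0.39, all below the spot error of 0.54. Over all 5 arrays the pair most alike was adh1 and pdc101, with a root mean square difference of 0.66, and the pair least alike was pdc201 and adh4, with 6.86.

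Glycolysis genes, which make the pyruvate, lay far below G0 at 1 h and 2 h and near it from 6 h on. Of 12 measured genes of the list, 10, 8, 3, 0 and 0 were at least 2-fold lower in array order, and 1 was higher, in vegetative cells. The shares of all genes that were lower were 22.6%, 21.3%, 16.7%, 14.9% and 14.6%, and 15.8% were higher in vegetative cells. Medians of the 12 genes were -2.33, -2.67, -0.56, 0.18 and 0.31. The lowest were tdh1 (-6.13 at 2 h) and gpd3 (-5.69 at 2 h), both for glyceraldehyde phosphate dehydrogenase, pgk1 for phosphoglycerate kinase (-5.38 at 1 h) and eno101 for enolase (-3.84 at 2 h). Between 2 h and 3.5 h, 9 of the 12 were past 2-fold upwards, beside 11.6% of all genes. The median difference of the 12 was 2.16, where adh1 differed by 0.50 and pdc101 by 0.37. That step crosses the 2 sets of columns, so a change between sets and a change in time cannot be told apart. The root mean square difference from the median course of glycolysis was 0.79 for adh1 and 0.99 for pdc101, and 3.42% and 8.33% of all genes were closer. The 12 glycolysis genes, which enter that median themselves, ranged from 0.11 to 1.85. The values of adh1 and pdc101 lay inside that range, as did that of pdc202 (1.52). The gene pdc102, at 1.86, was level with its upper end, and adh4 (3.43) and pdc201 (4.66) lay beyond it.

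**Figure D4:**
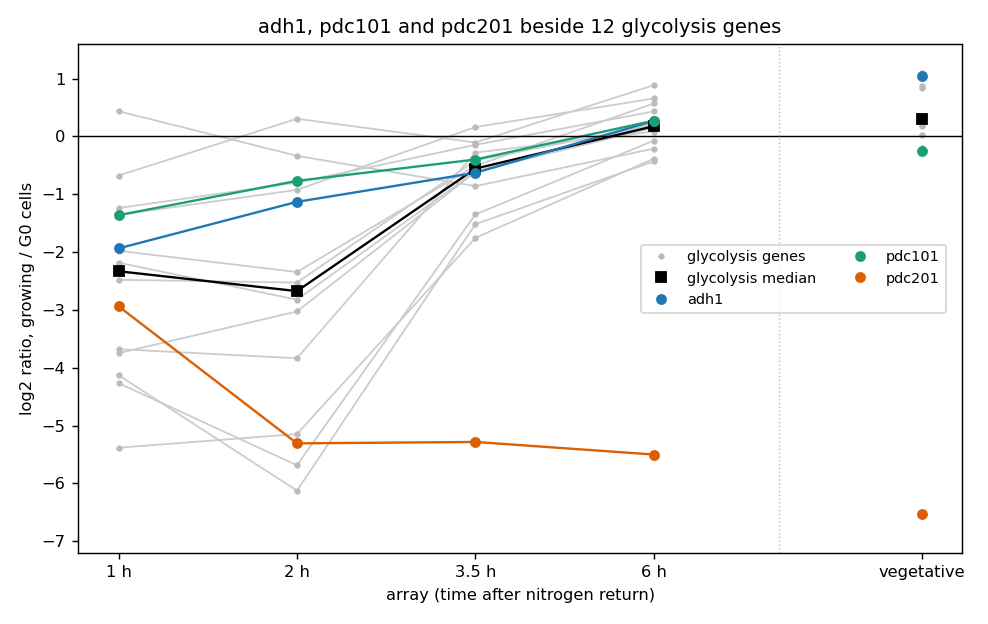
Log2 ratio of growing over G0 cells (vertical axis) on the 5 arrays (horizontal axis, categories) for 12 glycolysis genes in grey, their median in black, and adh1, pdc101 and pdc201 in colour. The glycolysis median goes from -2.67 at 2 h to -0.56 at 3.5 h, adh1 and pdc101 lie above it at 1 h and 2 h and beside it at 3.5 h and 6 h, and pdc201 remains at -5.28 and -5.50.

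Genes of other reactions around pyruvate had medians of -0.44, -0.39, 0.38, 0.57 and 0.71, nearer to G0 than those of glycolysis at 1 h and 2 h. Of 8 genes for the pyruvate dehydrogenase complex, pyruvate carboxylase, malic enzyme and citrate synthase, 2, 3, 1, 0 and 0 were at least 2-fold lower in array order and 0, 0, 2, 3 and 1 higher. The pyruvate dehydrogenase subunit gene pdb1 stood at 0.13 at 1 h and 1.64 at 6 h. The citrate synthase gene cit1 was at -4.18 at 1 h, the dihydrolipoamide dehydrogenase gene dld1 at -2.82 at 1 h and the malic enzyme gene mae2 at -2.82 at 2 h. All 3 were within 2-fold of G0 at 6 h, at 0.40, 0.48 and 0.33.

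Of the other alcohol and aldehyde dehydrogenase genes, atd2, atd3 and fmd2 were at least 2-fold below G0 on all 5 arrays, as pdc201 was, and others were not. Of the 8 measured genes of this list, which also holds the acetyl-CoA synthetase gene acs1, 5, 5, 5, 3 and 4 were at least 2-fold lower in array order, with medians of -1.78, -1.85, -1.83, -0.88 and -0.74. The share of all genes that were lower was 14.6% to 22.6% on the 5 arrays. The aldehyde dehydrogenase gene atd2 was at -1.83 at 1 h and -3.87 at 6 h, and atd3 went from -2.20 (1 h) to -4.11 (vegetative). The formaldehyde dehydrogenase genes fmd1 and fmd2 were at -3.04 and -1.80 at 1 h and at -0.46 and -2.64 in vegetative cells. Another alcohol dehydrogenase gene, adh8, was at -2.26 at 2 h and at -0.17 in vegetative cells. The gene acs1 was the only one of the list past 2-fold above G0, at 1.68 at 6 h and 1.76 in vegetative cells.

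Glycerol genes, whose synthesis branch also uses up NADH, were mixed. The glycerol dehydrogenase gene gld1 was at -6.29 at 1 h and -1.85 in vegetative cells, and the dihydroxyacetone kinase genes dak1 and dak2 at -4.95 and -3.20 at 1 h and at -1.53 and -2.76 in vegetative cells. The glycerol phosphate dehydrogenase gene gpd1 stood at 0.15 (1 h), -4.57 (2 h), -2.76 (3.5 h), -0.72 (6 h) and 0.01 (vegetative). Like pdc202 it was near its G0 level at 1 h and lowest at 2 h. The gene gpd2 of the same list went the other way, past 2-fold above G0 on all 5 arrays. It was at 1.95 (1 h), 2.55 (2 h), 2.04 (3.5 h), 2.03 (6 h) and 1.28 (vegetative). Of the 6 genes of the list, 3, 5, 4, 3 and 3 were at least 2-fold lower and 1, 1, 1, 1 and 2 higher. Among all genes the shares were 14.6% to 22.6% lower and 15.6% to 23.4% higher.

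Genes linked to thiamine, which bear on the cofactor of pyruvate decarboxylase, had medians of -0.70, -0.46, -0.01, 0.84 and 0.75 over 6 genes. Past 2-fold above G0 were 1, 2, 1, 3 and 2 of them, and 1, 2, 1, 0 and 0 were past 2-fold below it. Over all genes 15.6% to 23.4% were above and 14.6% to 22.6% below by as much, and nothing is read from these counts. The synthesis gene nmt1 went from -0.69 (1 h) and -1.87 (2 h) to 3.80 (6 h) and 3.06 (vegetative), and thi4 from 0.95 (1 h) to 1.97 (vegetative). The gene thi2 was at -2.54 at 3.5 h and the thiamine transporter gene thi9 at 2.21 at 1 h.

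Genes known for glucose repression, among them the regulators scr1 and rst2, were low in the main at 1 h and 2 h. Of 6 genes, 4 were at least 2-fold lower at 1 h and 5 at 2 h, beside 22.6% and 21.3% of all genes. The medians of the list were -5.20 and -4.37 on these arrays and -1.01, -1.01 and -0.85 on the later ones. The hexose transporter genes ght5 and ght3 stood at -6.73 and -6.11 at 1 h, the fructose bisphosphatase gene fbp1 at -5.16 and the invertase gene inv1 at -5.23. By 3.5 h all 4 were at -1.03 or above, whereas pdc201 was at -5.28. Here too the step from 2 h to 3.5 h crosses the sets of columns.

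The genes whose values over the 5 arrays were most like those of each member, by the root mean square difference among 4707 other genes, differed from member to member. For pdc201 these were mam2 (0.87), the mating pheromone receptor gene, urg1 (0.88) and the mating pheromone gene mfm1 (0.94). All 3 of these distances were larger than those of the genes named for the other members. For pdc202 they were the methionine sulfoxide reductase gene mxr1 (0.37), the autophagy gene atg16 (0.41) and gid1 (0.45). For adh4 they were ade8 of purine synthesis (0.27), the ribosome biogenesis helicase gene dbp7 (0.29) and the tRNA methyltransferase gene trm61 (0.33). For adh1 they were the signal peptidase gene sec11 (0.18), SPBC713.07c (0.19) and gls1 (0.35). For pdc101 they were the ATP synthase gene tim11 (0.18), the cysteine synthase gene cys12 (0.18) and reb1 (0.21). For pdc102 they were the meiosis gene spo6 (0.10), SPBC1685.04 (0.11) and cce1 (0.13).

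The members lie apart from each other in the genome, with all but adh1 on chromosome I in RefSeq's assembly. The nearest measured genes on either side of pdc201, peg1 and rrp41, stood at 0.41 and 0.42 in vegetative cells, where pdc201 was at -6.53. On either side of adh4, SPAC5H10.04 was at 0.45 and SPAC5H10.07 at 0.50 at 2 h, where adh4 was at 2.94. On either side of adh1, snp27 was at 0.47 and SPCC13B11.03c at 0.58 at 1 h, where adh1 was at -1.94. Next to pdc202, ysp2 was at -0.54 and csr102 at 0.37 at 2 h, where pdc202 was at -2.38. Next to pdc101, pfl8 was at -0.34 and SPAC1F8.08 at 0.45 at 1 h. The gene pdc102 has 8 protein-coding genes between it and the end of the chromosome, and its neighbour SPAC750.01 stood at -3.62 at 1 h and -4.37 at 2 h, where pdc102 was at 0.51 and 0.17. Each member overlaps at least 1 annotated long non-coding RNA gene, and prl107 and SPNCRNA.662 span pdc102 and pdc202 whole, as adh1AS does adh1. Of these RNAs adh1AS was the only one with a spot named for it. The decarboxylase genes are related to each other, and how far their spots share signal was not tested.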

How the data were processed

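The authors' deposited table gave log2 ratios (base assumed) of Cy5 over Cy3 per spot. Direction was taken from the dyes, per the labels. The sources used here do not say how images were read or how ratios were corrected and normalized. Titles, sources and protocols set each sample's time, since 3 samples (3.5 h, 6 h and vegetative) carry a description that says 2 h. Of 5184 spots, 4865 were annotated to 1 gene by the platform annotation, and spots of 1 gene were averaged. Names, gene order and overlaps came from RefSeq's ASM294v3 table, where 4839 of these spots matched. Coordinates were left out, as no build is named for the arrays.

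With 1 array per condition there was no test: genes past 2-fold were counted beside all genes. The members and the 8 gene lists were chosen with earlier results of these data known. Named were all members, the 4 genes of each list with the largest ratio of either sign, all starvation markers, the 3 genes most like each member, and the neighbouring genes. The genes loz1, acs1, adh8, gpd2, scr1 and rst2 were named outside this rule after their values were seen. The list symbols glk1 and eno102 had no spot, meu8 is an older name of atd3, and thi1 had no value. Averaging and counting were tested on simulated data. Alternatives were other centring, scaling, size limits, spot averaging and logarithm base. Python 3.11.15, numpy 2.4.6, pandas 2.3.3 and matplotlib 3.10.9 were used. The number of arrays limits the precision.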

Additional observations from a re-analysis of the deposited data

Results flagged for a closer look

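The gene adh1 was at least 2-fold below G0 on one array (-1.94 at 1 h) and at least 2-fold above it on another (1.05 in vegetative cells). The thiamine synthesis gene nmt1 likewise stood at -1.87 at 2 h and at 3.80 at 6 h. With 1 array per condition these differences were not tested.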

How the results depend on the processing

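No paired analysis was possible because each condition had 1 array. Members had 1 spot each, so medians or first values of repeated spots changed none of their values or counts. Of the 30 member values, 0 changed sign past 2-fold under any alternative, and centring on array medians moved them by at most 0.14. Block centring moved them by at most 0.35 and scaling by at most 1.31, the latter for values far from 0. With arrays or blocks centred, 0 members in place of 1 were 2-fold higher in vegetative cells, since adh1 dropped under the limit. With blocks centred, 1 member in place of 0 was higher from 3.5 h to 6 h. With arrays scaled, 2 members in place of 3 were lower at 2 h, since adh1 stood at -0.996, 0 members in place of 1 were lower from 2 h to 3.5 h and 1 in place of 0 from 3.5 h to 6 h. With a limit of 3-fold, 2 members in place of 3 were lower at 1 h and at 2 h, 0 members were higher at 6 h and in vegetative cells, 1 was lower on each of these arrays, and 0 were lower from 2 h to 3.5 h and from 6 h to vegetative growth. With a limit of 1.5-fold, 4 members were lower at 2 h and 3 at 3.5 h. With that limit 3, 1, 2 and 2 members were higher in the successive steps, and 2 were lower from 3.5 h to 6 h. Reading the values as natural logarithms gave 4 lower members at 2 h and left every count against G0 within 1.5 times.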
